A study of Mus musculus with 12 samples.

Results

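Imprinted genes are genes of which mainly the maternal or mainly the paternal copy is transcribed. Here 43 imprinted genes of the mouse, named in a list by symbol, were followed among the 54446 genes measured in embryonic stem (ES) cells. They were matched by their gene symbol, and all 43 were found in every library. By their usual expressed copy, 25 are paternally expressed, 14 maternally expressed, and 4 mixed, with a copy or promoter use that changes between tissues or transcripts (Grb10, Gnas, H13 and Inpp5f). This grouping does not mean that the others are imprinted in every tissue, and the expressed copy was not measured in these cells. They lie in 19 imprinted clusters or single loci.

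The 12 RNA sequencing libraries formed 6 groups of 2. KH cells are the wild type (KH2 in the study's methods), and DNMT3ABKO cells are a line with both de novo DNA methyltransferase genes, Dnmt3a and Dnmt3b, knocked out. Each line was collected as an untreated control (0 h) and after 72 and 144 h in the mTOR inhibitor INK128, which puts ES cells into a paused state like that of a dormant blastocyst. The labels also write E14 before both line names. Each genotype is represented by 1 line, there was no untreated culture at 72 or 144 h, and what sets 2 replicates apart is not given, so p-values measure only the spread between these libraries. Per the methods, both lines were grown on mitomycin-treated feeder cells and passed through a cell sorter before RNA extraction. A medium with serum and LIF is given there for the feeder-free lines, and none separately for the lines used here.

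As background, imprinting rests on DNA methylation that is laid down at imprinting control regions in the egg or the sperm and kept on that copy after fertilisation. De novo methyltransferases set the marks in the germ line, while Dnmt1 copies them at each cell division and ZFP57, a zinc-finger protein, protects them. Many imprinted genes act on foetal growth, and long noncoding RNAs in several clusters are expressed from the copy on which the protein-coding neighbours are silent. The libraries do not separate the 2 copies of a gene, so every value below is the sum of both, and the methylation of these genes was not analysed here.

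All values are TPM, shares of a total of 1000000 transcripts in each library, so a rise means a larger share of the RNA and not more RNA per cell. Read depth is unknown, since TPM does not retain it. Tests were made with limma on log2(TPM + 1) over the 15727 genes that averaged 1 TPM or more, and genes with an adjusted p (Benjamini-Hochberg) under 0.05 were called. Changes are log2 fold changes on that scale, with the standard error (SE) after ±, and each adjusted p is from limma. Of the 43 genes, 39 passed this filter and 4 did not (Airn, Zim1, Rasgrf1 and Nap1l5). The residual spread (SD on the log2 scale) was 0.272 in untreated DNMT3ABKO cells, against 0.133 to 0.176 elsewhere. Dnmt3a was at 9.45 ± 2.97 TPM (SD, n = 2) in DNMT3ABKO cells at 0 h against 56.2 ± 2.14 TPM in KH cells, and Dnmt3b at 26.9 ± 0.966 against 256.5 ± 2.54 TPM.

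Markers of other cell types moved with time in these libraries. The sum of 22 fibroblast markers, none of them listed at 0 in both libraries of a group, was 1588 to 1717 TPM in KH cells at 0 h, 467.7 to 478.3 at 72 h and 95.6 to 98.6 at 144 h. In DNMT3ABKO cells the same sum went from 1875 to 1884 TPM over 370.6 to 415.8 to 101.9 to 105.5. A sum of 10 macrophage markers went from 307.8 to 334.5 TPM to 39.9 to 40.9 at 144 h in KH cells and from 258.2 to 288.2 TPM to 56.1 to 59.0 in DNMT3ABKO cells. The sum of 10 ES cell markers was 4321 to 4609 TPM in both lines at 0 h and 6364 to 6847 TPM afterwards. Of these 10, 9 were called higher at 72 h and 8 at 144 h in KH cells, with none lower. In DNMT3ABKO cells 8 and 7 were called higher and 1 was called lower at each time. Markers of trophoblast (10 genes) summed to 108.7 to 125.7 TPM at 0 h and 45.2 to 50.7 TPM later in KH cells, and to 64.7 to 78.2 and 18.7 to 23.9 TPM in DNMT3ABKO cells. The 10 primitive endoderm markers summed to at most 22.3 TPM, and 10 neural markers were between 61.0 and 142.6 TPM. Of the 20 tested fibroblast markers, 20 were called lower at 72 h and 19 at 144 h in KH cells. In DNMT3ABKO cells 19 were called lower and 1 higher at each time. The part of these markers in the changes of the imprinted genes was not tested, and values are given below where the courses ran together. In bulk RNA, fewer cells of a type and less RNA per cell cannot be told apart.

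Imprinted genes moved both up and down under INK128. At 72 h in KH cells, 22 of the 39 tested genes were called, 11 higher and 11 lower, where 47.8% of all tested genes were called, 28.3% higher and 19.5% lower. At 144 h the count was 24, with 15 higher and 9 lower, against 51.3% of all genes (27.4% higher and 23.9% lower). DNMT3ABKO cells had 28 called genes at each time, 17 higher and 11 lower. All genes stood there at 56.0% (34.3% higher and 21.6% lower) at 72 h and 57.6% (31.4% higher and 26.2% lower) at 144 h. The higher counts include Rtl1, and all but that of KH cells at 72 h also include Kcnq1ot1. Both passed the filter only through treated libraries, which favoured a rise. The median change of the 39 genes at 72 and 144 h was -0.05 and 0.06 for KH and 0.29 and 0.19 for DNMT3ABKO, beside 0.08, 0.05, 0.12 and 0.05 for all genes. Called changes of at least 1 in absolute log2 fold change numbered 5 and 6 for KH, against 6.35% and 9.95% of all genes, and 8 and 12 for DNMT3ABKO, against 11.2% and 14.8%. Over the 11 contrasts, 35 of the 39 genes were called at least once, against 82.0% of all tested genes, and 18 at least once with an absolute log2 fold change of 1 or more, against 22.5%. H13, Mcts2, Ube3a and Slc22a18 were called in no contrast.

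The maternally expressed genes had the higher medians in all 4 of these contrasts. Of the 13 tested, 7 were called higher and 3 lower in KH cells at 72 h (median 0.40), 7 and 2 at 144 h (0.38), and 8 and 3 (0.44) and 7 and 2 (0.32) in DNMT3ABKO cells. Of the 22 tested paternally expressed genes, the counts were 4 higher and 6 lower (median -0.10), 8 and 5 (0.00), 9 and 6 (0.25) and 10 and 8 (0.05). These rises include Rtl1 each time, and Kcnq1ot1 in KH cells at 144 h and in DNMT3ABKO cells at 72 and 144 h. Both genes passed the filter only through treated libraries, so their rises were favoured by the filter. The 4 mixed genes had 2, 2, 2 and 1 called, and every one of those calls was lower. In the same order, 28.3%, 27.4%, 34.3% and 31.4% of all tested genes were called higher and 19.5%, 23.9%, 21.6% and 26.2% lower. The medians of all genes were 0.08, 0.05, 0.12 and 0.05. No test was made between the classes, and which copy is expressed in these cells was not measured. Of the maternally expressed genes that rose, 3 are neighbours in the Dlk1-Dio3 cluster.

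**Figure D1:**
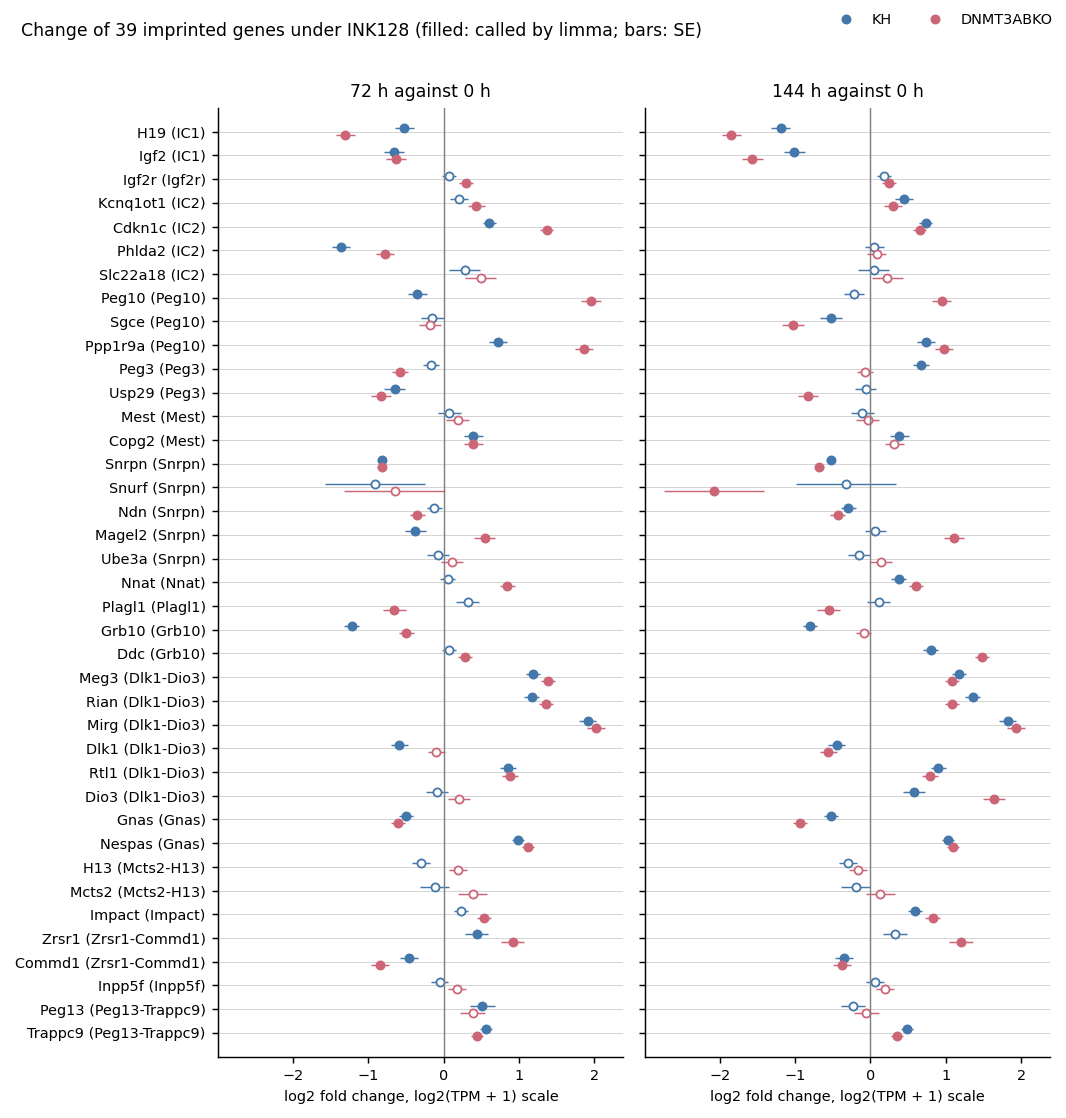
Change of each of the 39 tested imprinted genes from 0 h to 72 h (left) and to 144 h (right), as log2 fold change on the log2(TPM + 1) scale, with KH in blue and DNMT3ABKO in red. Bars are standard errors and filled points were called by limma; Meg3, Rian and Mirg lie above 1 in both lines at both times, while H19 and Igf2 lie below 0 in both.

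In the Dlk1-Dio3 cluster on chromosome 12, 4 of 6 genes were called higher at 72 h and 5 of 6 at 144 h in each line. Over all tested genes, 28.3% (KH) and 34.3% (DNMT3ABKO) were called higher at 72 h, then 27.4% and 31.4% at 144 h. Rtl1 is in each cluster count, and its rise was favoured by the filter, as described below. The cluster carries 3 maternally expressed noncoding RNAs, Meg3 (chr12:109541001-109571726), Rian (chr12:109603940-109661716) and Mirg (chr12:109729764-109749460), and 3 paternally expressed coding genes, Dlk1, Rtl1 and Dio3. All coordinates are mm10, as in the deposited files. RefSeq (GRCm38.p6, the assembly of mm10) lists 19 miRNA genes inside Meg3, Rian and Mirg on the same strand (2, 3 and 14), and 6 more within Rtl1 on the opposite strand. Of the 8 printed, the first 6 are shown because their host genes rose, and the last pair because they come from the RNA opposite Rtl1, which was not measured apart from Rtl1. The levels of the miRNAs were not analysed here. Capitals mark the seed, bases 2 to 8, the part of a miRNA that pairs with its targets. The first comes from Meg3, the second from Rian, the next 4 from Mirg and the last pair from the strand opposite Rtl1.
mmu-miR-770-5p: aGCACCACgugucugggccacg
mmu-miR-370-3p: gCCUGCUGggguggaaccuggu
mmu-miR-134-5p: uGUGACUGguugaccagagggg
mmu-miR-410-3p: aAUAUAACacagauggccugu
mmu-miR-453: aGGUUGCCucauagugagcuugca
mmu-miR-496a-5p: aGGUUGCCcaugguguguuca
mmu-miR-127-3p: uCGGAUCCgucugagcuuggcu
mmu-miR-433-3p: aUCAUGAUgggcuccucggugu
The 48 mature miRNAs in these 4 genes have 47 distinct seeds. The only seed found in more than 1 of them is that of miR-453 and miR-496a-5p, both in Mirg.

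Meg3, a long noncoding RNA, measured 113 and 125 TPM in KH cells at 0 h, 276 and 268 after 72 h and 242 and 299 after 144 h. In DNMT3ABKO cells it measured 107 and 104, then 273 and 281, then 226 and 223 TPM. Every treated library was above every untreated one. Meg3 stood at 203.8% to 266.5% of its 0 h mean in the treated libraries, where the ES cell marker sum stood at 145.1% to 155.8% and its part in the rises of Meg3, Rian and Mirg was not tested. The change was 1.19 ± 0.09 (adjusted p = 8.83e-06) and 1.17 ± 0.09 (5.16e-06) in KH cells at 72 and 144 h, and 1.39 ± 0.09 (1.91e-06) and 1.08 ± 0.09 (5.43e-06) in DNMT3ABKO cells.

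Rian, which also hosts small nucleolar RNAs, was the most abundant of the 43 genes per length. It went from 318 and 332 TPM over 726 and 737 to 812 and 853 TPM in KH cells, and from 256 and 326 over 734 and 750 to 596 and 628 TPM in DNMT3ABKO cells. Its changes at 72 and 144 h were 1.17 ± 0.10 and 1.35 ± 0.10 in KH cells (adjusted p = 1.38e-05 and 2.73e-06) and 1.36 ± 0.10 and 1.08 ± 0.10 in DNMT3ABKO cells (2.83e-06 and 7.96e-06). As for Meg3, treated and untreated libraries did not overlap. At 144 h Rian was lower in DNMT3ABKO than in KH cells by -0.44 ± 0.10 (adjusted p = 0.0083), a call lost without KH 144 h replicate 2 (-0.41) or DNMT3ABKO 144 h replicate 1 (-0.40).

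Mirg, the host of most of these miRNAs, had the largest rise of the 3. It stood at 23.0 and 26.4 TPM in untreated KH cells, 95.3 and 95.7 after 72 h and 78.6 and 102 after 144 h. DNMT3ABKO cells had 23.7 and 26.7, then 102 and 109, then 96.1 and 101 TPM. The treated libraries were thus at 318% to 433% of the 0 h mean of their line. The changes were 1.91 ± 0.12 and 1.82 ± 0.12 in KH cells (adjusted p = 2.16e-06 and 1.25e-06) and 2.03 ± 0.12 and 1.93 ± 0.12 in DNMT3ABKO cells (7.81e-07 and 4.52e-07).

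The paternally expressed neighbours did not move as one. Rtl1, a coding gene derived from a retrotransposon and needed in the placenta, was at 0.70 and 0.63 TPM in KH cells at 0 h and between 1.92 and 2.32 TPM in the treated libraries, with 0.67 and 0.60 and then 1.81 to 2.02 TPM in DNMT3ABKO cells. Its changes ran from 0.79 to 0.90 (adjusted p from 7.03e-05 to 0.000138), and with a pseudocount of 0.1 TPM from 1.40 to 1.53. Rtl1 was under 1 TPM in every untreated library and passed the filter only through its treated ones. These calls, which the cluster counts above include, were thus favoured by the filter and describe a gene near the lower end of detection. A maternal RNA that bears the miRNAs named above runs antisense to Rtl1, and since the strand setting of the quantification is not stated, its reads and those of Rtl1 cannot be told apart.

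Dlk1, a membrane protein related to Notch ligands, was at 6.76 and 8.18, then 4.53 and 4.71, then 5.29 and 5.10 TPM in KH cells. The DNMT3ABKO libraries were at 9.40 and 7.80, then 8.31 and 7.64, then 5.45 and 5.55 TPM. It fell in KH cells at 72 h by 0.59 ± 0.11 (adjusted p = 0.00201) and at 144 h by 0.45 ± 0.11 (0.0077), and in DNMT3ABKO cells at 144 h by 0.56 ± 0.11 (0.00182). At 72 h its DNMT3ABKO libraries overlapped the untreated ones (-0.09, adjusted p = 0.503). The KH call at 144 h was lost without KH 0 h replicate 2 (-0.33). Where Dlk1 was at 60.6% to 63.0% of its 0 h mean (KH at 72 h), the fibroblast and macrophage sums were at 28.3% to 29.0% and 75.7% to 77.8%. At 144 h Dlk1 was at 68.3% to 70.8% in KH and 63.4% to 64.5% in DNMT3ABKO cells, with those sums at 5.42% to 5.97% and 12.4% to 21.6% over both lines, and their part in its level was not tested. The ratio of Meg3 to Dlk1, both per length, was 16.0 ± 0.963 (SD, n = 2) in KH cells at 0 h and 58.9 ± 2.76 at 72 h, and 12.4 ± 1.32 and 34.9 ± 2.77 in DNMT3ABKO cells.

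Dio3, an enzyme that inactivates thyroid hormone, rose late. It measured 1.87 and 1.96, 1.68 and 1.83, and 3.72 and 2.99 TPM in KH cells, and 0.73 and 1.03, 1.30 and 1.04, and 5.51 and 4.21 TPM in DNMT3ABKO cells. The 144 h libraries were above all others of their line. The change at 144 h was 0.57 ± 0.14 in KH cells (adjusted p = 0.00767), a call lost without KH 144 h replicate 1 (0.45), and 1.64 ± 0.14 in DNMT3ABKO cells (6.83e-06). The rise was larger in DNMT3ABKO cells by 1.06 ± 0.20 (adjusted p of the difference between lines = 0.0102). This difference includes the lower 0 h level of Dio3 in DNMT3ABKO cells (-0.64). That 0 h call was lost without either KH 0 h library or DNMT3ABKO 0 h replicate 1, and in a limma fit of the 0 h libraries alone (adjusted p = 0.139). At 144 h itself Dio3 did not differ between the lines by a call.

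In contrast to Dio3, no difference between lines in the response of Meg3, Rian, Mirg or Rtl1 was called at either time (adjusted p from 0.271 to 0.968). For these 4 genes the difference between lines was 0.02 to 0.20 at 72 h and -0.27 to 0.11 at 144 h, each with an SE of 0.13 to 0.17. At the start of Meg3 lies the window shown here, because Meg3 rose in both lines and the window holds 1 copy of TGCCGC, the core of the motif that ZFP57 binds. The window covers 250 bases before to 50 bases after the start (chr12:109540746-109541045, + strand, RefSeq), and capitals mark the motif, here on the opposite strand as GCGGCA.
Meg3: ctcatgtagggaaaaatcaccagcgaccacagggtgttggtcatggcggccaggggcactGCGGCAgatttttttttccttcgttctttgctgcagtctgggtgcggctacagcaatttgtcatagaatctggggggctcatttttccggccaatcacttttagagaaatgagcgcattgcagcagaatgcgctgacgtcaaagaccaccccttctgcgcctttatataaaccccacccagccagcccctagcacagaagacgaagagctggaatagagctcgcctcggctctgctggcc
The motif was searched as TGCCGC on both strands. Such windows were found for 34 of the 43 genes, and 13 of the 34 (38.2%) held the motif in at least 1 window, as did 13.1% of the 27025 genes with a window. By window, 28.0% of the 50 member windows and 11.6% of all 32851 windows held it. Snrpn and Snurf share 1 window with the motif, and both are counted among the 13. Member windows had a median of 14.5 CpG and all windows a median of 7. The other Meg3 window in RefSeq holds 1 CpG and no TGCCGC. Whether ZFP57 binds there was not measured. The 9 genes with no window were Peg10, Cdkn1c, Impact, Trappc9, Sgce, Peg13, H19, Nespas and Rtl1.

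**Figure D2:**
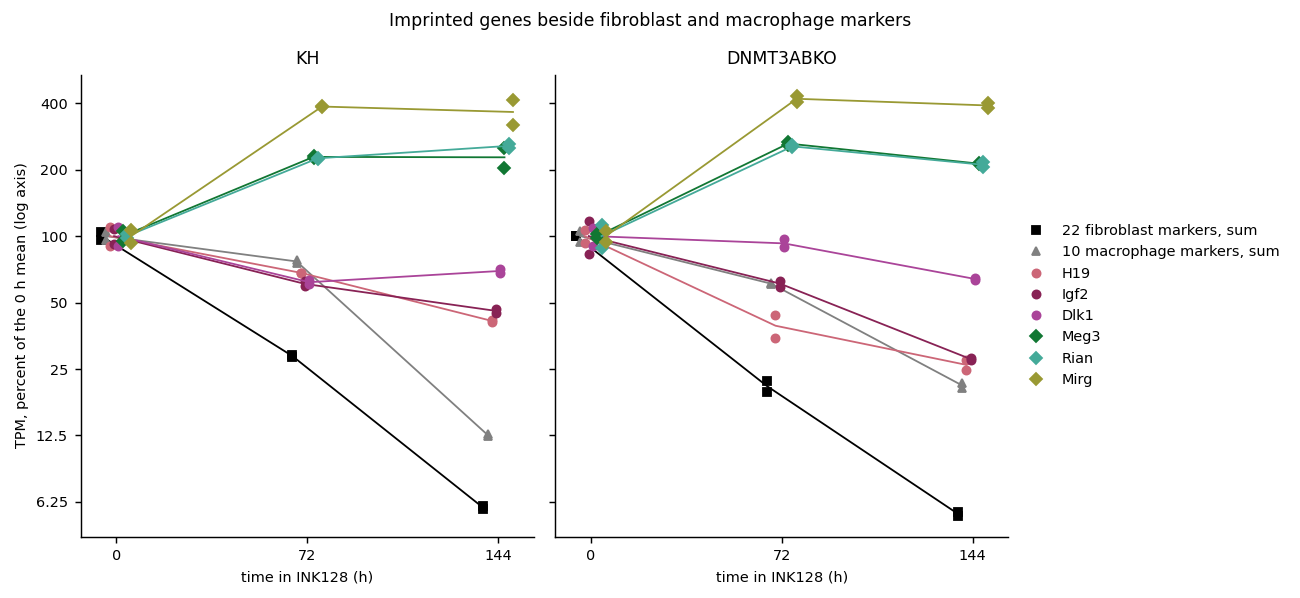
TPM of 6 imprinted genes and of the summed fibroblast and macrophage markers in each library, as a percent of the 0 h mean of the same line (log axis), against hours in INK128, for KH (left) and DNMT3ABKO (right). Points are libraries and lines join means of 2. Meg3, Rian and Mirg lie above 200 percent in every treated library, and H19 and Igf2 fall less far than the fibroblast sum.

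At the H19-Igf2 locus on chromosome 7, named IC1 in the plots, both genes fell. H19, a maternally expressed noncoding RNA that restrains growth, went from 21.7 and 26.3 TPM over 16.4 and 16.3 to 9.99 and 9.86 TPM in KH cells, and from 46.2 and 40.3 over 18.97 and 15.03 to 10.7 and 11.9 TPM in DNMT3ABKO cells. Its libraries fell in the same order in both lines with no overlap between times. At 72 and 144 h the changes were -0.52 ± 0.12 (adjusted p = 0.00693) and -1.19 ± 0.12 (3.64e-05) for KH, against -1.30 ± 0.12 (1.85e-05) and -1.85 ± 0.12 (1e-06) for DNMT3ABKO. The KH call at 72 h was lost without KH 0 h replicate 2 (-0.39). In untreated cells H19 was 1.80-fold higher in DNMT3ABKO than in KH cells (0.83 ± 0.12, adjusted p = 0.00264, and 0.0521 in a fit of the 0 h libraries alone), while at 72 and 144 h the lines differed by 0.04 and 0.17 with no call.

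Igf2, the paternally expressed foetal growth factor, went from 12.5 and 14.5 TPM over 8.40 and 7.98 to 6.07 and 6.29 TPM in KH cells, and from 9.89 and 13.8 over 7.01 and 7.46 to 3.32 and 3.26 TPM in DNMT3ABKO cells. It fell by 0.65 ± 0.14 and 1.01 ± 0.14 in KH cells (adjusted p = 0.00314 and 0.000182) and by 0.63 ± 0.14 and 1.57 ± 0.14 in DNMT3ABKO cells (0.00308 and 5.9e-06). Without DNMT3ABKO 0 h replicate 2 the 72 h change there was -0.40. At 144 h Igf2 was lower in DNMT3ABKO than in KH cells by -0.74 ± 0.14 (adjusted p = 0.00307). Fibroblast markers fell alongside: the sums given above were 28.3% to 29.0% of the 0 h mean at 72 h and 5.79% to 5.97% at 144 h in KH cells, where H19 was at 68.0% to 68.4% and 41.0% to 41.6% and Igf2 at 59.2% to 62.3% and 45.0% to 46.6%. In DNMT3ABKO cells the sums were at 19.7% to 22.1% and 5.42% to 5.61%, H19 at 34.7% to 43.8% and 24.7% to 27.5%, and Igf2 at 59.1% to 62.9% and 27.5% to 28.0%. The untreated sum was higher in DNMT3ABKO than in KH cells, as was H19, and 4 of 20 fibroblast markers were called higher there. The part of the fibroblast markers in the values of H19 and Igf2 was not tested. The receptor that degrades IGF2, Igf2r, was at 29.4 to 36.7 TPM in KH libraries and 30.5 to 41.2 TPM in DNMT3ABKO libraries. It was called higher in DNMT3ABKO cells at 72 h (0.29) and 144 h (0.24) and in DNMT3ABKO against KH cells at 72 h (0.37), and each of these calls was lost on leaving out any of 3, 9 and 4 single libraries, with values from 0.12 to 0.37. The 144 h call was also lost with a replicate block within each line (adjusted p = 0.0664). Airn, the antisense RNA that silences Igf2r, was listed at 0.093 to 0.849 TPM and was not tested.

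In the Kcnq1ot1 cluster on the same chromosome, named IC2, the growth-restraining genes Cdkn1c and Phlda2 moved apart at 72 h. Cdkn1c, the CDK inhibitor p57, measured 18.6 and 20.3, 29.8 and 30.5, and 32.5 and 33.4 TPM in KH cells, and 18.005 and 21.3, 51.8 and 52.6, and 32.4 and 30.5 TPM in DNMT3ABKO cells. Treated libraries were higher in both lines, and the 72 h DNMT3ABKO libraries were the highest of all 12. It rose by 0.61 ± 0.09 and 0.73 ± 0.09 in KH cells (adjusted p = 0.000327 and 7.15e-05) and by 1.37 ± 0.09 and 0.66 ± 0.09 in DNMT3ABKO cells (1.25e-06 and 0.00011). The 72 h rise was larger in DNMT3ABKO cells by 0.76 ± 0.12 (adjusted p = 0.00664), and from 72 to 144 h Cdkn1c fell there by 0.72 ± 0.09 (0.000198).

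Phlda2, which restrains growth of the placenta, dipped and returned. Its levels were 68.9 and 81.0, 30.3 and 26.8, and 76.8 and 78.0 TPM in KH cells and 68.9 and 89.0, 45.0 and 45.5, and 88.1 and 78.3 TPM in DNMT3ABKO cells. The 72 h libraries were below all others in each line, and those of 0 and 144 h overlapped. The fall at 72 h was -1.36 ± 0.12 in KH cells (adjusted p = 2.39e-05) and -0.78 ± 0.12 in DNMT3ABKO cells (0.000469), and the return from 72 to 144 h was 1.41 ± 0.12 (3.73e-05) and 0.86 ± 0.12 (0.000619). At 72 h DNMT3ABKO cells were higher by 0.65 ± 0.12 (adjusted p = 0.00522), a call lost without KH 72 h replicate 2 (0.56), while the difference between lines in the 72 h response, 0.58 ± 0.17, was not called (0.0971). The noncoding RNA that silences this cluster in cis, Kcnq1ot1, was at 0.73 to 1.72 TPM. It was under 1 TPM in every untreated library and passed the filter only through its treated ones, so its calls with time were favoured by the filter. It was called higher in KH cells at 144 h (0.45) and in DNMT3ABKO cells at 72 h (0.44) and 144 h (0.30). The last of these was lost on leaving out any 1 of the 12 libraries (0.22 to 0.38) or with a replicate block within each line (adjusted p = 0.083), the others on leaving out KH 144 h replicate 1 (0.39) or DNMT3ABKO 72 h replicate 1 (0.36). Slc22a18, a transporter-like gene, was at 0.67 to 1.90 TPM with no call.

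**Figure D3:**
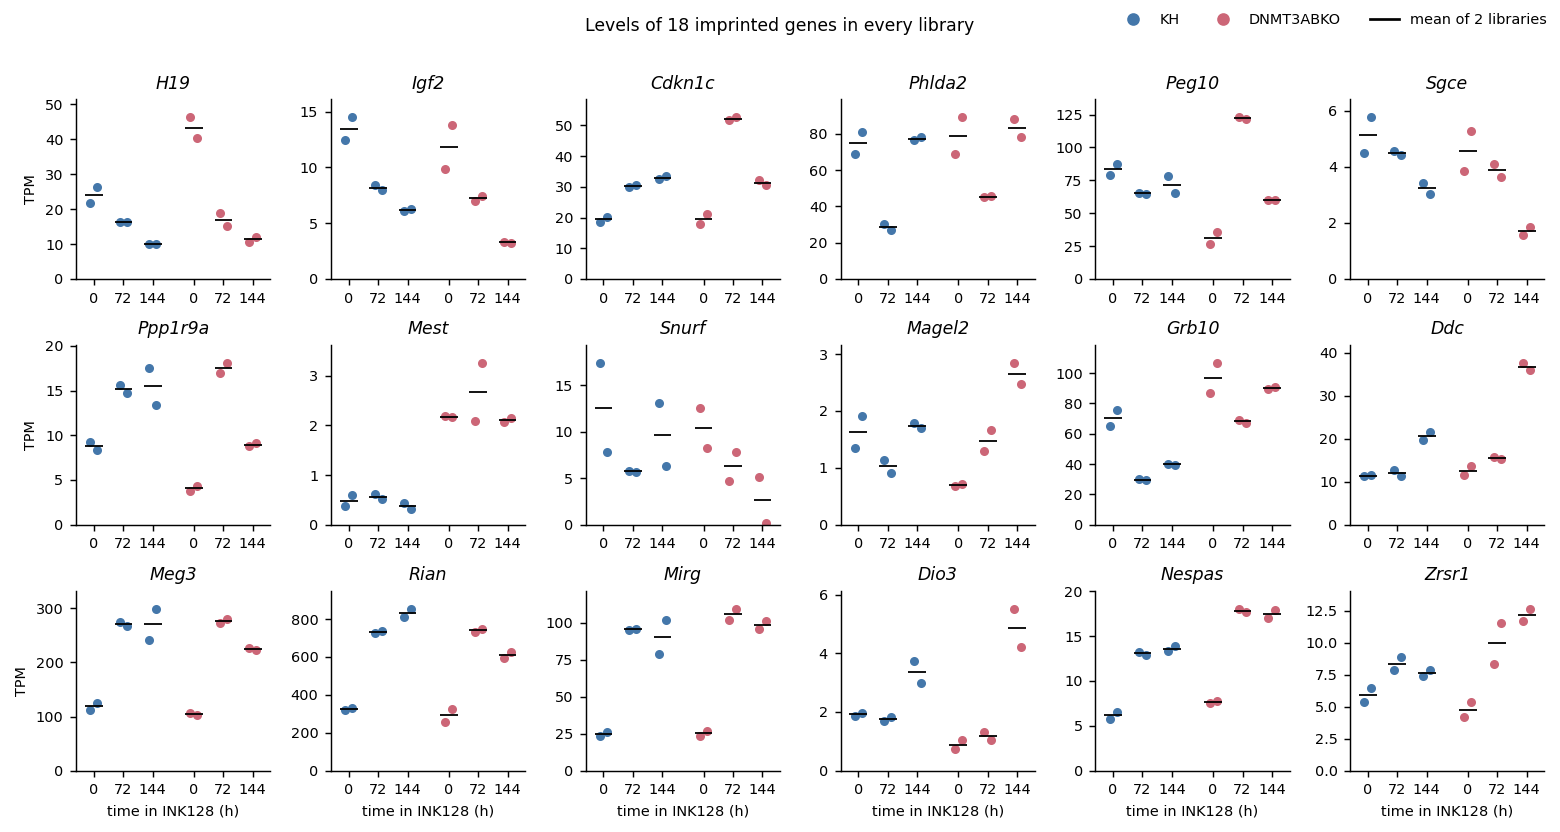
TPM of the 18 imprinted genes that were called with an absolute log2 fold change of at least 1 in any contrast, in each library, by hours in INK128, for KH (blue) and DNMT3ABKO (red). Points are single libraries, bars are means of 2, and each axis starts at 0. Peg10 and Ppp1r9a peak at 72 h in DNMT3ABKO cells, and Phlda2 is lowest at 72 h in both lines.

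The Peg10 cluster on chromosome 6 held the largest difference between lines. Peg10, a retrotransposon-derived gene needed for the placenta, measured 79.4 and 87.2, 65.6 and 64.8, and 78.0 and 65.4 TPM in KH cells. The DNMT3ABKO libraries measured 26.3 and 36.0, 123 and 122, and 60.2 and 60.2 TPM. The untreated DNMT3ABKO libraries were the lowest and the 72 h ones the highest of all 12.

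The change of Peg10 in DNMT3ABKO cells was 1.96 ± 0.13 at 72 h (adjusted p = 1.69e-06) and 0.94 ± 0.13 at 144 h (0.00014). In KH cells it was -0.35 ± 0.13 at 72 h (adjusted p = 0.0474), a call lost on leaving out any of 8 single libraries (-0.41 to -0.28) and with a replicate block within each line (adjusted p = 0.0546), and -0.22 ± 0.13 at 144 h (0.184). The difference between the 2 responses was 2.30 ± 0.18 at 72 h (adjusted p = 0.000349) and 1.16 ± 0.18 at 144 h (0.0031). Untreated DNMT3ABKO cells were at 37.4% of the KH mean, a difference of -1.41 ± 0.13 (adjusted p = 0.000102), and at 72 h they were 1.88-fold higher (0.90 ± 0.13, 0.000984). The trophoblast markers given above were also lower in untreated DNMT3ABKO than in KH cells and fell with time in both lines, and their part in the level of Peg10 was not tested.

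Ppp1r9a, an actin-binding scaffold and a maternally expressed gene of this cluster, showed a similar course in DNMT3ABKO cells. Its levels there were 3.80 and 4.34, 16.9 and 18.05, and 8.76 and 9.11 TPM, beside 9.24 and 8.37, 15.6 and 14.7, and 17.6 and 13.4 TPM in KH cells. Untreated libraries were below treated ones in both lines. The changes at 72 and 144 h were 1.87 ± 0.12 (adjusted p = 1.56e-06) and 0.97 ± 0.12 (7.75e-05) in DNMT3ABKO cells and 0.72 ± 0.12 (0.000951) and 0.74 ± 0.12 (0.000626) in KH cells. The difference in response was called at 72 h (1.15 ± 0.17, adjusted p = 0.00466) and not at 144 h (0.23 ± 0.17, 0.464).

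Sgce, the paternally expressed gene that starts beside Peg10 on the other strand, did not follow it. It was at 4.48 and 5.75, 4.57 and 4.43, and 3.42 and 3.03 TPM in KH cells, and at 3.85 and 5.27, 4.11 and 3.65, and 1.56 and 1.86 TPM in DNMT3ABKO cells. The libraries of 0 and 72 h overlapped in each line, and those of 144 h were lowest. Sgce fell at 144 h by 1.03 ± 0.15 in DNMT3ABKO cells (adjusted p = 0.000208) and by 0.53 ± 0.15 in KH cells (0.0131), the KH call being lost without KH 0 h replicate 2 (-0.38) or KH 144 h replicate 2 (-0.46). The ratio of Peg10 to Sgce per length rose from 6.84 ± 0.0134 (SD, n = 2) to 31.7 ± 2.50 at 72 h in DNMT3ABKO cells and was 16.4 ± 1.80 and 14.5 ± 0.199 in KH cells. By 144 h the fibroblast markers had fallen to 5.42% to 5.97% of their 0 h mean, where Sgce was at 59.2% to 66.8% in KH and 34.2% to 40.9% in DNMT3ABKO cells, and their part in its fall was not tested.

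Mest stood apart as a gene that differed between the lines at every time and had no call with time in INK128. This paternally expressed gene, named for its transcription in mesoderm (chr6:30723547-30748465), was at 0.37 and 0.60, 0.61 and 0.52, and 0.43 and 0.31 TPM in KH cells. In DNMT3ABKO cells it was at 2.18 and 2.18, 2.09 and 3.25, and 2.07 and 2.14 TPM. No KH library reached any DNMT3ABKO library. The difference was 1.10 ± 0.15 at 0 h (adjusted p = 0.0016), 1.21 ± 0.15 at 72 h (0.000423) and 1.18 ± 0.15 at 144 h (0.000387), or 1.99, 2.03 and 2.23 with a pseudocount of 0.1 TPM. Mest passed the filter only through its DNMT3ABKO libraries, so these calls are a description of a gene near the lower end of detection. The changes with time, 144 against 72 h included, ran from -0.22 to 0.19 with no call.

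The start of the Mest transcript whose window holds the motif TGCCGC is shown because of this line difference (chr6:30737800-30738099, + strand). Capitals mark its 2 copies, both as GCGGCA.
Mest: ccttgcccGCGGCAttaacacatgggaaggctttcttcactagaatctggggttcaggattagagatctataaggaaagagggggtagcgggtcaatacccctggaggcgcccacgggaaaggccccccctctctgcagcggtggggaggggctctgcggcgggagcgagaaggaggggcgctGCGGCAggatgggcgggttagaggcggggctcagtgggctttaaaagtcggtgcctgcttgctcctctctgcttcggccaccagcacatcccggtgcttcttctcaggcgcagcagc
The intron-hosted miR-335 lies in Mest on the same strand, and its 5p arm is printed as the other known product of the gene, with the seed in capitals.
mmu-miR-335-5p: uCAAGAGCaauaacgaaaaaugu
Copg2, which encodes a coat protein of transport vesicles and overlaps the end of Mest on the opposite strand, was at 19.9 to 32.1 TPM and did not differ between lines by any call. It was called higher in KH cells at 72 h (0.40) and 144 h (0.38) and in DNMT3ABKO cells at 72 h (0.39). Each of these calls was lost on leaving out any of 3 libraries, and without DNMT3ABKO 0 h replicate 1 the last was 0.17.

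Of the chromosome 11 neighbours Grb10 and Ddc, Grb10 fell at 72 h in both lines and Ddc rose by 144 h in both. Grb10, an adaptor that damps insulin and IGF signalling, was at 65.1 and 75.9, 30.0 and 29.2, and 40.2 and 39.6 TPM in KH cells. The DNMT3ABKO libraries were at 86.7 and 107, 69.4 and 66.8, and 89.8 and 90.8 TPM. At each time the DNMT3ABKO libraries were above the KH ones.

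Grb10 fell in KH cells by 1.22 ± 0.10 at 72 h (adjusted p = 1.19e-05) and 0.80 ± 0.10 at 144 h (0.000106). In DNMT3ABKO cells it fell by 0.49 ± 0.10 at 72 h (adjusted p = 0.00208), and at 144 h it overlapped the untreated libraries (-0.09, 0.465). From 72 to 144 h Grb10 rose in both lines, by 0.42 ± 0.10 in KH cells (adjusted p = 0.0138) and 0.40 ± 0.10 in DNMT3ABKO cells (0.0134), each lost on leaving out any library of the 2 groups compared (0.38 to 0.43). The difference between lines in the response was 0.73 ± 0.14 at 72 h (adjusted p = 0.0158), lost on leaving out any of 5 libraries (0.62 to 0.76), and 0.71 ± 0.14 at 144 h (0.0117). Grb10 was thus higher in DNMT3ABKO than in KH cells by 1.18 ± 0.10 at 72 h (adjusted p = 2.39e-05) and 1.16 ± 0.10 at 144 h (1.73e-05). The 0 h difference, 0.45 ± 0.10 (adjusted p = 0.0211), was lost without KH 0 h replicate 1 (0.34) and in a fit of the 0 h libraries alone (0.294). Grb10 has a promoter of very high CpG content, with 45 CpG in 300 bases, shown here with the 1 copy of the motif in capitals (chr11:12037371-12037670, - strand, as GCGGCA).
Grb10: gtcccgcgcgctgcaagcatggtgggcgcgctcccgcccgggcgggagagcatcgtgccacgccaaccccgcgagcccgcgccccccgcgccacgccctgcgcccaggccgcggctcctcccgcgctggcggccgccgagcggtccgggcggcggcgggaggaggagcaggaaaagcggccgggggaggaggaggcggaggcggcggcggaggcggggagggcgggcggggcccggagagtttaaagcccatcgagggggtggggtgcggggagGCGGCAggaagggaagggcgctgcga
The other Grb10 window in RefSeq holds 9 CpG and no TGCCGC, and TPM per gene does not separate transcripts from the 2 starts.

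Ddc, an aromatic amino acid decarboxylase, was at 11.3 and 11.6, 12.8 and 11.4, and 19.7 and 21.5 TPM in KH cells and at 11.5 and 13.6, 15.7 and 15.2, and 37.6 and 36.0 TPM in DNMT3ABKO cells. The 144 h libraries were highest in each line. Ddc rose at 144 h by 0.80 ± 0.09 in KH cells (adjusted p = 7.91e-05) and by 1.48 ± 0.09 in DNMT3ABKO cells (6.42e-07). The rise was larger in DNMT3ABKO cells by 0.69 ± 0.13 (adjusted p = 0.0109), a call lost without KH 144 h replicate 1 (0.62) or DNMT3ABKO 144 h replicate 1 (0.66). The small 72 h rise in DNMT3ABKO cells (0.29 ± 0.09) was lost without DNMT3ABKO 0 h replicate 1 (0.18), under median-ratio scaling (0.17, adjusted p = 0.0785) and with a replicate block within each line (0.0512).

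In the Gnas cluster on chromosome 2 the coding gene fell and its antisense RNA rose. Nespas, a paternally expressed noncoding RNA, went from 5.79 and 6.51 TPM to 13.3 and 12.9 and then 13.4 and 13.9 TPM in KH cells, and from 7.58 and 7.71 to 18.02 and 17.7 and then 17.0 and 17.9 TPM in DNMT3ABKO cells. Gnas, the stimulatory G protein alpha subunit, went from 187 and 221 TPM to 153 and 133 and then 142 and 140 TPM in KH cells, and from 209 and 213 to 133 and 144 and then 113 and 107 TPM in DNMT3ABKO cells. For both genes, treated and untreated libraries of a line did not overlap.

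Nespas rose by 0.98 ± 0.08 and 1.03 ± 0.08 in KH cells (adjusted p = 1.09e-05 and 4.18e-06) and by 1.12 ± 0.08 and 1.09 ± 0.08 in DNMT3ABKO cells (2.52e-06 and 1.66e-06). Gnas fell by 0.50 ± 0.09 and 0.52 ± 0.09 in KH cells (0.00162 and 0.00106) and by 0.61 ± 0.09 and 0.93 ± 0.09 in DNMT3ABKO cells (adjusted p = 0.000371 and 1.64e-05). The 2 genes overlap on opposite strands and Gnas has several promoters, so with the strand setting unstated their reads cannot be fully told apart. The ratio of Nespas to Gnas per length rose from 0.0303 ± 0.00112 (SD, n = 2) to 0.0965 ± 0.00361 at 144 h in KH cells and from 0.0362 ± 2.1e-05 to 0.158 ± 0.0119 in DNMT3ABKO cells. Nespas was higher in DNMT3ABKO than in KH cells at 72 h (0.42 ± 0.08, adjusted p = 0.00501).

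In the Snrpn cluster on chromosome 7, 2 of the 5 tested genes were called lower at each time in KH cells and none higher. Of all genes, 19.5% were called lower there at 72 h and 23.9% at 144 h. In DNMT3ABKO cells 2 of the 5 were called lower at 72 h and 3 at 144 h, against 21.6% and 26.2% of all genes, with Magel2 called higher at both. Snrpn, the splicing protein SmN, was at 145 and 151 TPM in KH cells at 0 h, 83.2 and 83.3 after 72 h and 103 and 102 after 144 h, and at 133 and 131, 77.0 and 71.3, and 80.6 and 83.5 TPM in DNMT3ABKO cells. It fell by 0.82 ± 0.06 at 72 h in both lines (adjusted p = 5.51e-06 and 2.92e-06) and by 0.53 ± 0.06 and 0.68 ± 0.06 at 144 h (5.71e-05 and 6.55e-06), and no treated library reached an untreated one of its line. Snurf, a short upstream reading frame of the Snrpn transcript, varied between replicates, with 17.4 and 7.78, 5.83 and 5.73, and 13.1 and 6.33 TPM in KH cells and 12.5 and 8.22, 4.71 and 7.88, and 5.15 and 0.14 TPM in DNMT3ABKO cells. Its only call, at 144 h in DNMT3ABKO cells (-2.08 ± 0.67, adjusted p = 0.0221), was lost without DNMT3ABKO 144 h replicate 2 (-0.86) or DNMT3ABKO 0 h replicate 1 (-1.80). It shares sequence with Snrpn, so the split of reads between them is uncertain. Ndn, a MAGE family gene, was at 4.79 to 8.66 TPM. It was called lower in DNMT3ABKO cells at 72 h (-0.35) and 144 h (-0.44) and in KH cells at 144 h (-0.29), and only the second of these held on leaving out any library. The ubiquitin ligase Ube3a was at 32.9 to 46.0 TPM.

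Magel2, the other MAGE family member of this cluster, rose in DNMT3ABKO cells. There it went from 0.68 and 0.71 TPM over 1.29 and 1.66 to 2.84 and 2.47 TPM, and in KH cells it was at 1.35 and 1.91, 1.14 and 0.91, and 1.78 and 1.70 TPM. The DNMT3ABKO libraries rose in order of time without overlap. The rise at 144 h was 1.11 ± 0.14 (adjusted p = 7.13e-05), or 1.79 with a pseudocount of 0.1 TPM. The difference between lines in the 144 h response was 1.04 ± 0.19 (adjusted p = 0.00829). This difference includes the lower 0 h level of Magel2 in DNMT3ABKO cells (-0.63). That 0 h call was lost without KH 0 h replicate 2 or DNMT3ABKO 0 h replicate 1. At 144 h itself Magel2 was higher in DNMT3ABKO cells by 0.41, a call lost on leaving out any of 8 libraries (0.34 to 0.49). The KH fall at 72 h (-0.37 ± 0.14, adjusted p = 0.0457) was lost on leaving out any of 7 libraries (-0.46 to -0.22) and with a replicate block within each line (adjusted p = 0.0781).

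Peg3 and Usp29, paternally expressed genes that start from a shared control region on chromosome 7, responded differently in the lines by 144 h. Peg3, a zinc-finger gene, was at 30.2 to 35.7 TPM in KH cells up to 72 h and at 63.0 and 52.1 TPM at 144 h, while in DNMT3ABKO cells it was at 45.7 and 54.6, 34.0 and 32.1, and 47.4 and 47.2 TPM. The change at 144 h was 0.67 ± 0.11 in KH cells (adjusted p = 0.000466) and -0.08 in DNMT3ABKO cells, a difference of -0.75 ± 0.15 (0.012). This difference includes its higher 0 h level in DNMT3ABKO cells (0.48 ± 0.11, adjusted p = 0.02, a call lost without either KH 0 h library), and at 144 h itself the lines did not differ by a call (-0.27). Usp29, a ubiquitin protease, fell at 72 h in both lines (-0.65 ± 0.14 and -0.83 ± 0.14, adjusted p = 0.00355 and 0.000614). At 144 h it was back at 2.15 and 2.56 TPM in KH cells, near its 0 h values of 2.67 and 2.34, and still at 1.00 and 1.05 TPM in DNMT3ABKO cells. At that time it was lower in DNMT3ABKO than in KH cells by -0.73 ± 0.14 (adjusted p = 0.00377). The difference between lines in its 144 h response (-0.76 ± 0.19, adjusted p = 0.0382) was lost on leaving out any of 8 libraries (-0.85 to -0.68) and with a replicate block within each line (adjusted p = 0.0651). Zim1, the maternally expressed zinc-finger gene beside them, was at 0.28 to 1.33 TPM and was not tested.

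Among the retrogene loci, Zrsr1 and its host Commd1 moved apart. Zrsr1, a splicing-factor retrogene inside an intron of Commd1, was at 5.39 and 6.42, 7.83 and 8.90, and 7.36 and 7.90 TPM in KH cells and at 4.19 and 5.33, 8.34 and 11.5, and 11.7 and 12.6 TPM in DNMT3ABKO cells. Untreated libraries were lowest in each line. It rose in DNMT3ABKO cells by 0.92 ± 0.15 at 72 h (adjusted p = 0.00065) and 1.20 ± 0.15 at 144 h (9.08e-05), and in KH cells by 0.44 ± 0.15 at 72 h (0.037), the last lost on leaving out any of 7 libraries (0.33 to 0.52). Commd1, a protein of endosomal sorting, fell in DNMT3ABKO cells at 72 h by 0.84 ± 0.12 (adjusted p = 0.00024). Its smaller falls, -0.45 and -0.35 in KH cells and -0.38 in DNMT3ABKO cells at 144 h, were each lost on leaving out any of 3 libraries. Mcts2 and its host H13 were at 12.9 to 23.9 and 24.4 to 39.3 TPM, and Nap1l5, at 0.14 to 1.65 TPM, was not tested.

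Of the remaining genes, Impact, which restrains the amino acid sensor kinase GCN2, rose from 68.5 and 76.8 TPM to 109 and 110 TPM at 144 h in KH cells (0.59 ± 0.10, adjusted p = 0.000634) and from 60.4 and 74.3 to 116 and 123 TPM in DNMT3ABKO cells (0.82 ± 0.10, 5.11e-05). Trappc9, a subunit of a trafficking complex, rose at both times in both lines by 0.35 to 0.56, and the DNMT3ABKO call at 144 h missed the threshold in a fit of its own groups (adjusted p = 0.0617). Peg13, a noncoding RNA in an intron of Trappc9, was at 1.45 to 3.41 TPM with calls in KH cells only (0.52 at 72 h, and -0.75 from 72 to 144 h), each lost on leaving out any of 3 libraries. Nnat, a small membrane protein, rose in DNMT3ABKO cells by 0.85 ± 0.10 at 72 h (adjusted p = 6.44e-05) and by 0.05 in KH cells with no call, and the difference of 0.79 ± 0.14 (0.0102) was lost without KH 72 h replicate 2 (0.74) or DNMT3ABKO 72 h replicate 1 (0.71). Plagl1, a zinc-finger transcription factor, was at 7.63 and 11.03 TPM in untreated DNMT3ABKO cells and between 4.86 and 6.67 TPM elsewhere. It fell in that line by 0.65 ± 0.15 at 72 h (adjusted p = 0.00484), with a change of -0.41 without DNMT3ABKO 0 h replicate 2. Inpp5f, a phosphoinositide phosphatase, was at 6.65 to 10.3 TPM with 1 call, in DNMT3ABKO against KH cells at 72 h (0.40), lost on leaving out any of 8 libraries. Rasgrf1, a Ras exchange factor, was listed at 0 to 0.068 TPM and was not tested.

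Between 72 and 144 h, 12 of the 39 genes were called in KH cells, 10 higher and 2 lower, against 22.9% of all genes (7.24% higher and 15.6% lower). The same step in DNMT3ABKO cells gave 16, 7 higher and 9 lower, against 27.3% (8.81% higher and 18.5% lower). Changes of at least 1 were called for 1 and 3 genes, against 2.98% and 4.57%. The rises in KH cells included Phlda2, Peg3 and Ddc (1.41, 0.84 and 0.72). Of the 17 genes that had risen at 72 h in DNMT3ABKO cells, 4 were then called lower, where 18.5% of all genes were. The 72 h libraries that picked these 17 genes also enter this step, so a fall was favoured by the choice. The share among all genes that had risen was not computed. The 4 were Peg10 (-1.01 ± 0.13, adjusted p = 0.000289), Ppp1r9a (-0.89 ± 0.12, 0.000431), Cdkn1c as above and Meg3 (-0.30 ± 0.09, 0.0356). The Meg3 call was lost on leaving out any of 6 libraries (-0.32 to -0.28) and under median-ratio scaling (-0.23, adjusted p = 0.114). Mirg and Nespas were not called at this step (-0.10 and -0.03). The counts of 12 and 16 called genes were 5 to 7 without either of the KH 72 h or KH 144 h libraries, and 10 without DNMT3ABKO 72 h replicate 1 or DNMT3ABKO 144 h replicate 1.

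DNMT3ABKO and KH cells were compared at each time. With 1 line per genotype, loss of the de novo methyltransferases and other differences between the lines cannot be told apart. In untreated cells 10 of the 39 genes were called, 5 of them higher in DNMT3ABKO cells and 5 lower, against 9.06% of all genes (4.92% higher and 4.14% lower). The higher ones were H19, Mest, Plagl1, Peg3 and Grb10, and the lower ones Peg10, Ppp1r9a, Dio3, Magel2 and Nnat, the last lost with a replicate block within each line (adjusted p = 0.0672). In a fit of the 0 h libraries alone 3 calls were left, and 5 to 18 were made on leaving out single libraries, 5 without either KH 0 h library and 18 without DNMT3ABKO 0 h replicate 2. At 72 h 11 genes were called, all higher in DNMT3ABKO cells, against 19.3% of all genes, where 9.26% were called higher. This count was 6 to 7 without either KH 72 h library or without DNMT3ABKO 72 h replicate 1. At 144 h 13 were called, 6 higher and 7 lower, against 26.5% (15.5% lower), with 10 higher and 7 lower under median-ratio scaling and 20 called without either DNMT3ABKO 0 h library. Each of these counts includes Mest, which passed the filter only through DNMT3ABKO cells and so had to differ. A difference of at least 1 was called for Mest at each time and for 1 other gene, Peg10 at 0 h and Grb10 later, against 1.58%, 3.29% and 3.82% of all genes. Mest and Grb10 were called higher in DNMT3ABKO cells at all 3 times. Of the Dlk1-Dio3 genes, 1 of 6 was called at each time (Dio3, Dlk1 and Rian in turn).

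**Figure D4:**
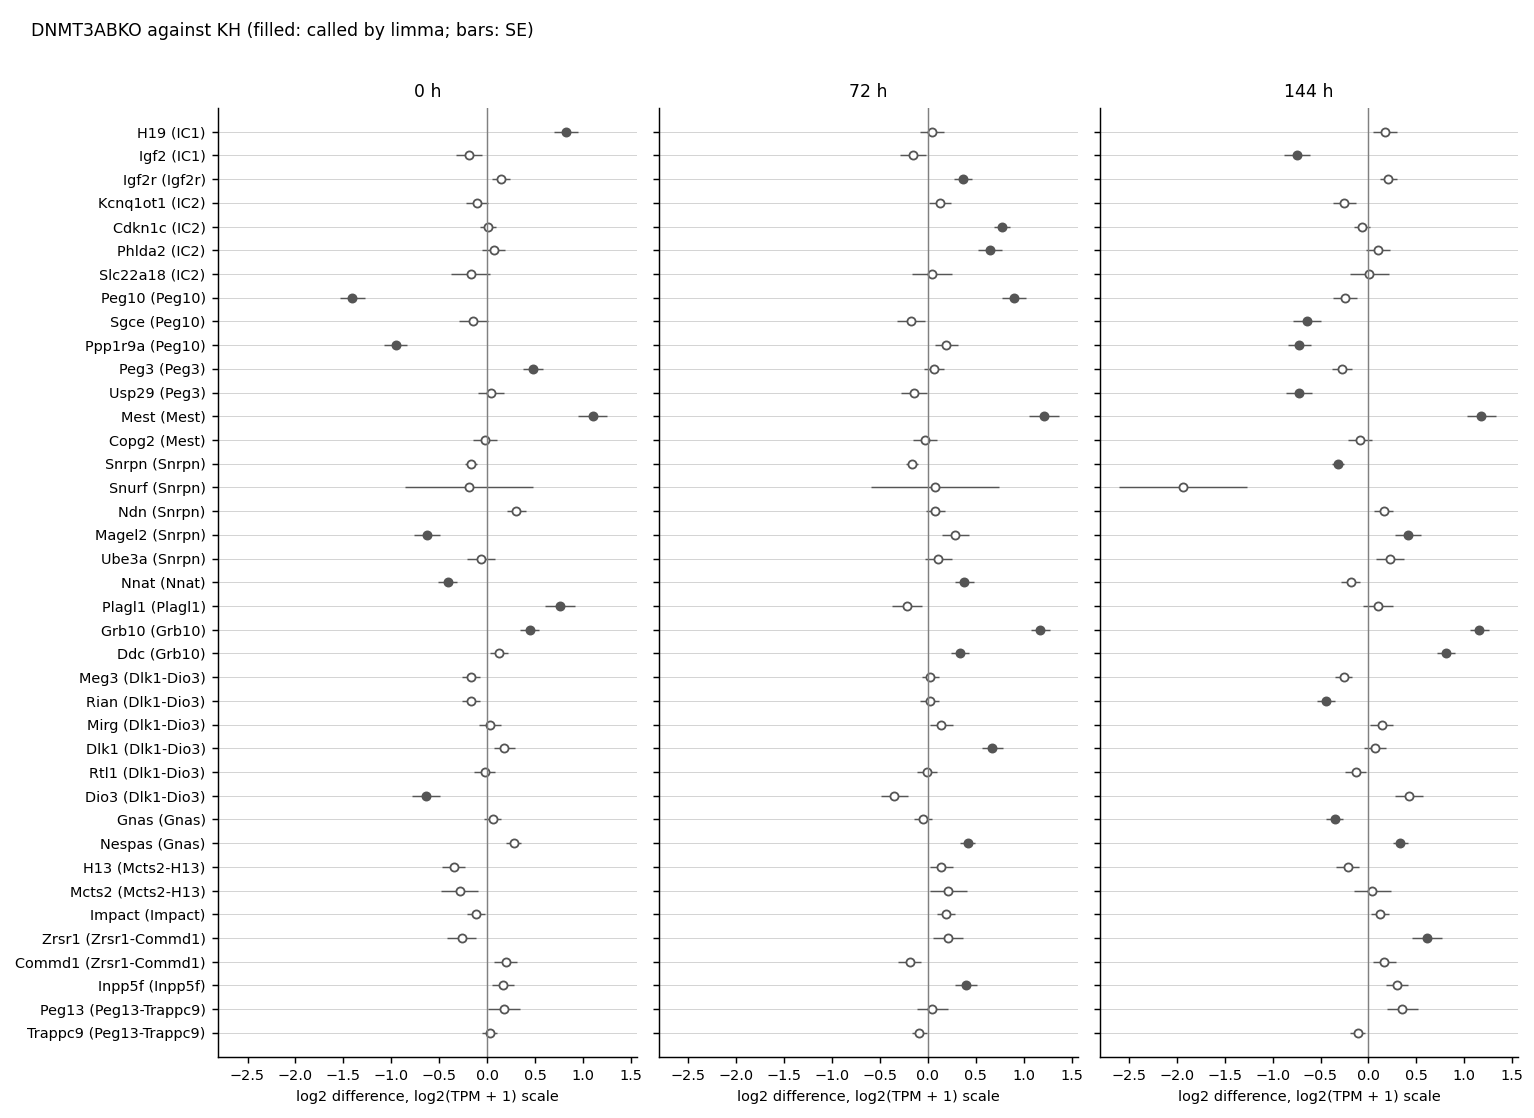
Difference of DNMT3ABKO from KH cells for each of the 39 tested imprinted genes at 0, 72 and 144 h, in log2 units on the log2(TPM + 1) scale, with points right of 0 higher in DNMT3ABKO cells. Bars are standard errors and filled points were called by limma. Mest lies above 1 in all 3 panels, and Peg10 goes from -1.41 at 0 h to 0.90 at 72 h.

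The response itself differed between lines for 8 genes at 72 h (6 above and 2 below the KH response), against 5.23% of all genes (3.38% above and 1.86% below). For 144 h the number was 9 (6 and 3), against 8.59% (4.89% and 3.70%). Differences of at least 1 were called for 2 and 3 of them, against 1.81% and 3.01%. These counts share the untreated libraries with the comparison at 0 h. Both lines gave a call for 20 genes at 72 h, 18 with the same sign, the exceptions being Peg10 and Magel2, where 38.9% of all genes were called in both lines and 6050 of those 6111 had the same sign. The number was 21 at 144 h, all 21 with the same sign, where 41.1% of all genes were called in both lines and 98.4% of those had the same sign. A further 10 of the 39 genes were called in 1 line only at each time, against 26.1% of all genes at 72 h and 26.8% at 144 h. The difference between lines was called for 2 of these 10 genes at 72 h and 6 at 144 h. Of all genes called in 1 line only, the difference was called for 11.7% and 17.9%. The 72 h count of genes whose response differed was 13 without DNMT3ABKO 0 h replicate 2 and 3 to 5 without any of KH 0 h replicate 2, the KH 72 h or the DNMT3ABKO 72 h libraries, and the 144 h count was 5 without KH 144 h replicate 1. With a replicate block within each line the 72 h count was 5. Under median-ratio scaling the 144 h split was 6 higher and 5 lower.

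A further list of 36 imprinted genes, of which 35 were in the files and 23 were tested, also moved in both directions. In KH cells the 72 h calls were 7 higher and 6 lower and the 144 h calls 9 and 8, and in DNMT3ABKO cells 9 and 5 and then 8 and 7. In that order 56.5%, 73.9%, 60.9% and 65.2% of the 23 were called, against 47.8%, 51.3%, 56.0% and 57.6% of all genes. Sfmbt2, a Polycomb group gene, fell most in all 4 contrasts (-2.15 and -3.06 for KH, -2.77 and -3.23 for DNMT3ABKO), and Zfp264 rose most (1.24, 1.82, 2.03 and 1.85). Both also differed between the lines at 0 h, Zfp264 higher (1.37) and Sfmbt2 lower (-0.96) in DNMT3ABKO cells. Among 17 genes that set, keep or remove imprints, the 72 h calls were 8 higher and 2 lower for KH and 9 and 1 for DNMT3ABKO, and the 144 h calls 9 and 2, and 10 and 3. In that order 58.8%, 58.8%, 64.7% and 76.5% of the 17 were called, against 47.8%, 56.0%, 51.3% and 57.6% of all genes. Neither list was tested as a set. Zfp57 rose in all 4 contrasts (1.57 and 1.17 for KH at 72 and 144 h, 1.43 and 1.40 for DNMT3ABKO). In KH cells it went from 167.5 ± 10.6 TPM (SD, n = 2) at 0 h to 498.0 ± 1.02 TPM at 72 h. Dppa3, which protects maternal methylation in the zygote, fell in all 4 (-1.64, -2.07, -2.97 and -2.71).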

How the data were processed

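Total RNA was sequenced from 12 mouse ES cell libraries. Per the methods, the study prepared ribosomal RNA-depleted libraries with ERCC spike-ins, trimmed reads with cutadapt, aligned them to mm10 with STAR and estimated levels with StringTie. The submitters' processing notes give cutadapt 2.4, STAR 2.7.3a and StringTie 2.0, and the methods name later versions of the last pair. The TPM values were deposited by gene as the authors computed them, 1 file per library, each summing to 1000000 with no spike-in rows listed, and the strand setting is not given in the sources used here. The study used DESeq2 on counts, which TPM does not allow.

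Groups followed the labels (6 groups of 2). The 15727 genes that averaged 1 TPM or more were fitted together on log2(TPM + 1) with limma 3.58.1 (R 4.3.3; lmFit and eBayes with trend) in a model of group means. The 11 contrasts were 72 and 144 h against 0 h and 144 against 72 h in each line, the lines compared at 0, 72 and 144 h, and the difference between lines in each response. P-values were adjusted over all tested genes by Benjamini-Hochberg, two-sided, at 0.05. Members described in full, with every library, were those called in any contrast with an absolute log2 fold change of at least 1, and others were added by cluster. The members and gene lists were chosen with earlier results of these data known. Also tried were a smaller pseudocount (0.1 TPM), no filter, median-ratio scaling, a fit of only the groups compared, a replicate block, an absolute log2 fold change of at least 1 added to the call, and each library left out in turn. The study states that the time points of each biological replicate were handled in parallel, so the block was fitted within each line, and, added after seeing the data, across both lines. Deviations of libraries with the same number correlated between -0.104 and 0.1 within a line and between -0.064 and 0.336 across lines, the highest for KH with DNMT3ABKO at 0 h. The fitting step was also run on simulated data, and the outcome is not given here. Promoter windows and miRNAs came from RefSeq (GRCm38.p6). Tables and plots were made with Python 3.11.15, pandas 2.3.3, NumPy 2.4.6 and matplotlib 3.10.9.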

Additional observations from a re-analysis of the deposited data

Results flagged for a closer look

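For 17 results the response to INK128 differed between DNMT3ABKO and KH cells by the limma test of the difference itself (log2 units, DNMT3ABKO minus KH, adjusted p under 0.05). At 72 h these were Peg10 (2.30), Ppp1r9a (1.15), Magel2 (0.92), Nnat (0.79), Cdkn1c (0.76), Grb10 (0.73), H19 (-0.79) and Plagl1 (-0.98). At 144 h they were Peg10 (1.16), Dio3 (1.06), Magel2 (1.04), Zrsr1 (0.88), Grb10 (0.71), Ddc (0.69), H19 (-0.66), Peg3 (-0.75) and Usp29 (-0.76). Peg10, Ppp1r9a and Cdkn1c at 72 h and Peg10, Dio3, Magel2, Grb10 and Peg3 at 144 h kept the call whichever library was left out, and the other 9 lost it on at least 1 omission. Those of H19 (9 omissions at 72 h and 8 at 144 h), Zrsr1 (9), Plagl1 (8) and Usp29 (8) were lost most often. With a replicate block within each line, the calls of H19 (adjusted p = 0.0534 at 72 h and 0.0682 at 144 h), Magel2 (0.0611) and Plagl1 (0.063) at 72 h and Usp29 (0.0651) at 144 h were lost by limma. Both responses of a line share its untreated libraries, and the DNMT3ABKO ones had the widest spread of the 6 groups. With 2 libraries in a group, no library was tested for standing apart.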

How the results depend on the processing

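Of the 181 calls of a gene in a contrast, none reversed under any alternative, 115 were kept whichever library was left out and 66 were lost on at least 1 omission. Leaving out a library leaves 1 sample in that group, which is then assumed to vary like the other groups. Over single omissions the counts of called genes ran from 16 to 25, 19 to 27 and 5 to 15 in KH cells (72 against 0 h, 144 against 0 h, 144 against 72 h) and from 23 to 34, 24 to 30 and 10 to 22 in DNMT3ABKO cells. The comparison of lines gave 5 to 18 at 0 h, 6 to 12 at 72 h and 9 to 20 at 144 h, and the difference in response 3 to 13 at 72 h and 5 to 12 at 144 h. With an absolute log2 fold change of at least 1 added to the call, the counts were 5, 6 and 1 in KH cells, 8, 12 and 3 in DNMT3ABKO cells, 2 at each time between lines, and 2 and 3 for the difference in response. In a fit of only the groups compared, 3 genes were called between lines at 0 h and 4 for the 72 h difference in response. That last count was 5 with no filter and 5 with the replicate block within each line, and the block moved no other count by over 1.5 times. It ended 17 of the 181 calls: those given above, Magel2 between lines at 144 h and from 72 to 144 h in KH cells, Nnat at that step and between lines at 72 h, Gnas from 72 to 144 h in DNMT3ABKO cells, and Ddc between lines at 72 h. A block across both lines, chosen after seeing the data, ended 8 calls and moved no count by over 1.5 times. Under median-ratio scaling the median of all genes in DNMT3ABKO cells at 72 h moved from 0.12 to 0.01, and the KH split at 72 h was 10 higher and 13 lower instead of 11 and 11. With a pseudocount of 0.1 TPM, changes of genes near 1 TPM were larger (Rtl1, Mest, Magel2, Usp29, Kcnq1ot1, Dio3 and Snurf). Depth is not known from TPM, so no counting error could be given, and levels near 1 TPM have an error that these values do not show.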

Other observations

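Ratios between genes of 1 cluster changed with time or differed between lines. The ratio of Grb10 to Ddc per length went from 6.17 ± 0.557 (SD, n = 2) at 0 h to 2.46 ± 0.164 at 72 h and 1.94 ± 0.145 at 144 h in KH cells, and from 7.69 ± 0.231 to 4.41 ± 0.0268 and 2.46 ± 0.0971 in DNMT3ABKO cells. The ratio of Phlda2 to Cdkn1c went from 3.85 ± 0.198 to 0.949 ± 0.0974 and back to 2.35 ± 0.0187 in KH cells, and from 4.005 ± 0.252 to 0.867 ± 0.00327 and 2.65 ± 0.104 in DNMT3ABKO cells. The ratio of H19 to Igf2 was 1.78 ± 0.0527 in untreated KH cells and 3.80 ± 1.25 in untreated DNMT3ABKO cells, with a spread between the DNMT3ABKO libraries from 2.92 to 4.68.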
